A study of Homo sapiens with 24 samples.

Results

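DNA replication licensing genes encode the ring of the replicative helicase and the proteins that load it onto DNA before S phase. Here *MCM10*, which acts after loading, is counted among these genes. They were taken as 10 symbols, *ORC1*, *CDC6*, *CDT1*, *MCM2*, *MCM3*, *MCM4*, *MCM5*, *MCM6*, *MCM7* and *MCM10*, and each matched 1 row of the 28307 genes in the count table. These 10 genes are called members below. All 10 passed the filter on low counts in both cell lines. RNA was sequenced from sorted cells of the breast cancer line SUM159 and the colon cancer line SW620 after 30 h under nifuroxazide (NIF), a nitrofuran antibiotic that the study tested against cancer stem cells, or under its solvent DMSO. Both lines were sorted on aldehyde dehydrogenase activity into ALDHbr cells, labelled as cancer stem cells, and ALDHneg cells, labelled as non-cancer stem cells, which makes 8 groups of 3 libraries: SUM159 ALDHbr under DMSO, SUM159 ALDHbr under NIF, SUM159 ALDHneg under DMSO, SUM159 ALDHneg under NIF, and the same 4 for SW620. The labels give the NIF stock, 10 mM, but not the dose in the medium. The 3 replicates of a group are described as independent, each tissue is represented by 1 cell line, and each library holds a whole sorted population, whatever the phase of its cells in the cycle.

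A replication origin is licensed in late mitosis and G1 phase. The origin recognition complex, whose largest subunit is ORC1, marks the DNA, CDC6 and CDT1 join it, and together they load the ring of MCM2, MCM3, MCM4, MCM5, MCM6 and MCM7 in a double copy around the duplex. In S phase MCM10 helps to turn the loaded ring into the moving helicase, while geminin and ubiquitin ligases keep CDT1 from loading more. Many of these genes are textbook targets of the E2F transcription factors, which bind short GC-rich sites near their starts.

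The places of 9 of the genes are (RefSeq, GRCh38.p14) *ORC1* at chr1:52372829-52409503, *CDC6* at chr17:40287879-40304657, *CDT1* at chr16:88803789-88809258, *MCM2* at chr3:127598411-127622436, *MCM3* at chr6:52264015-52284742, *MCM5* at chr22:35400140-35455031, *MCM6* at chr2:135839626-135876443, *MCM7* at chr7:100092728-100101397 and *MCM10* at chr10:13161558-13211110. RefSeq windows of 300 bases, 250 before the annotated start of transcription and 50 from it on, were at hand for 8 of the 10, and not for *MCM4* and *MCM5*. *MCM7* had 3 windows, of which the one at the outermost start is described. The only window of *ORC1*, which begins at chr1:52404374, lies inside the gene, so the outermost start of *ORC1* was not searched. The windows were searched on both strands for 4 E2F octamers (TTTCCCGC, TTTCGCGC, TTTGCCGC and TTTGGCGC, with the reverse complements GCGGGAAA, GCGCGAAA, GCGGCAAA and GCGCCAAA), for the cell cycle homology region TTTGAA (reverse TTCAAA) and for the CCAAT box (reverse ATTGG). An E2F octamer stood in the windows of 6 of these 8 genes, against 3.31% of all 35116 windows. The cell cycle homology region, which 15.2% of all windows hold, was in none of the 8. A CCAAT box was in 6 of the 8, against 34.6% of all windows. These matches are descriptions of the sequence and no measure of binding.

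The stretches around the E2F octamers are shown because the members that carry one include both genes that fell under NIF in SW620 and *CDC6*, which did not. Each is written 5′ to 3′ on the strand of its gene, with the octamers in capitals, and positions count from 1 at the first transcribed base and from -1 at the base before it. The *MCM6* stretch, chr2:135876512-135876605 on the minus strand, runs from -162 to -69, and each of its 2 capital runs holds 2 octamers that overlap on opposite strands. In *MCM2*, chr3:127598403-127598434 on the plus strand, from -8 to 24, the 2 octamers also overlap and lie just after the start. *MCM3*, chr6:52284729-52284926 on the minus strand from -184 to 14, and *MCM7*, chr7:100101389-100101594 on the minus strand from -197 to 9, each have 1 octamer far upstream and 1 at or beside the start. *CDT1*, chr16:88803744-88803771 on the plus strand, is shown from -45 to -18, and *CDC6*, chr17:40287876-40287903 on the plus strand, from -3 to 25.
MCM6: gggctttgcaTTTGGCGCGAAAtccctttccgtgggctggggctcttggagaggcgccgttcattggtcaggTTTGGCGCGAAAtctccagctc
MCM2: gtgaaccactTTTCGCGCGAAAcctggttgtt
MCM3: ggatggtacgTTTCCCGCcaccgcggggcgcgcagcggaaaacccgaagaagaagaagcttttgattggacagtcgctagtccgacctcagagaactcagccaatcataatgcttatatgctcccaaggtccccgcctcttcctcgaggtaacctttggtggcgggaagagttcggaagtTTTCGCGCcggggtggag
MCM7: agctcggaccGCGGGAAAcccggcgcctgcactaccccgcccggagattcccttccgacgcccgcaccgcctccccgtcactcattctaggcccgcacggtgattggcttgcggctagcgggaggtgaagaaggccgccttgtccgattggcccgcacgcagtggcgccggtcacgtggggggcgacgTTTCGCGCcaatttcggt
CDT1: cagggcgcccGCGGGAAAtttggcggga
CDC6: gccattcggaTTTGGCGCgagcgcggct

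The libraries held 30253187 to 43127948 counted reads (median 36520935). Levels are given as counts per 1000000 reads (CPM) with library sizes scaled within each cell line, and a log2 fold change comes with its standard error (SE) and a p-value adjusted over all genes tested, which is called below 0.05. The summed CPM of 10 mesenchymal markers was 7564 to 10016 in SUM159 and 14.8 to 50.1 in SW620, where *VIM* stayed under 1 CPM. The summed CPM of 10 colon epithelial markers was 0.209 to 8.34 in SUM159 and 1946 to 2525 in SW620, where *CDX1* stayed under 1 CPM. *ALDH1A1*, an enzyme behind the sorted activity, was at 104 to 153 CPM in SUM159 ALDHbr cells under DMSO and at 0.419 to 0.542 CPM in ALDHneg cells. In SW620 the 2 populations lay closer, at 1257 to 1357 and 883 to 921 CPM, and *ALDH1A3* was lower in ALDHbr cells, with a log2 fold change of -0.36 (SE 0.05, adjusted p = 7.23e-04).

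The licensing genes took 0.272% to 0.278% of all counts in SW620 ALDHbr libraries under DMSO, and 0.202% to 0.207% under NIF. In SW620 ALDHneg libraries the share was 0.259% to 0.269% under DMSO and 0.203% to 0.205% under NIF. The SUM159 shares overlapped between treatments, at 0.197% to 0.206% and 0.1996% to 0.212% in ALDHbr cells, and at 0.193% to 0.201% and 0.189% to 0.204% in ALDHneg cells, under DMSO and NIF respectively.

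Levels of different genes were compared per kilobase of the canonical transcript (lengths from GENCODE on GRCh37, 2467 to 4564 bases), with all 24 libraries scaled together. In ALDHbr cells under DMSO *MCM7* had the highest level in both lines, 158 ± 6.51 CPM per kilobase in SUM159 and 268 ± 14.2 in SW620 (SD, n = 3). In SW620 it was followed by *MCM4* at 159 ± 1.56, *MCM2* at 125 ± 4.00 and *MCM3* at 114 ± 4.59. *MCM6* at 60.2 ± 2.48 and *MCM5* at 51.8 ± 3.00 formed a lower step of the same ring. The loaders *CDT1* at 44.4 ± 5.34 and *CDC6* at 36.3 ± 1.73 came next, and *ORC1* at 18.4 ± 0.871 and *MCM10* at 14.8 ± 0.345 closed the order, in which only *MCM5* and *CDT1* lay closer to each other than the sum of their SDs. In SUM159 *MCM2* at 85.0 ± 3.54 lay closer to *MCM4* at 87.5 ± 0.804 and to *MCM3* at 79.3 ± 3.03 than the sum of their SDs, and *MCM5* at 54.1 ± 3.94 stood above *MCM6* at 33.8 ± 1.03. *CDT1* at 31.6 ± 1.24, *CDC6* at 22.4 ± 0.216, *ORC1* at 15.7 ± 0.458 and *MCM10* at 14.3 ± 0.263 again took the last places, with *CDT1* close to *MCM6* by the same measure.

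Most of these transcripts were higher in SW620 than in SUM159 without NIF. In ALDHbr cells under DMSO 8 of the 10 were called higher in SW620, against 39.6% of 16271 genes called higher. The log2 fold change was 0.86 (SE 0.05, adjusted p = 1.02e-14) for *MCM4* and 0.83 (SE 0.07, adjusted p = 7.01e-11) for *MCM6*, the highest of the 10. It was 0.76 for *MCM7*, 0.70 for *CDC6*, 0.56 for *MCM2*, 0.52 for *MCM3*, 0.49 for *CDT1* and 0.23 for *ORC1*. *MCM5* and *MCM10* were not called, with 95% intervals of -0.21 to 0.08 and -0.07 to 0.18. Scaling by library totals alone moved the median of all genes from -0.05 to -0.20, and then 7 members were called higher, *ORC1* was not called and *MCM5* was called lower. Cell line and tissue of origin cannot be told apart here.

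**Figure D1:**
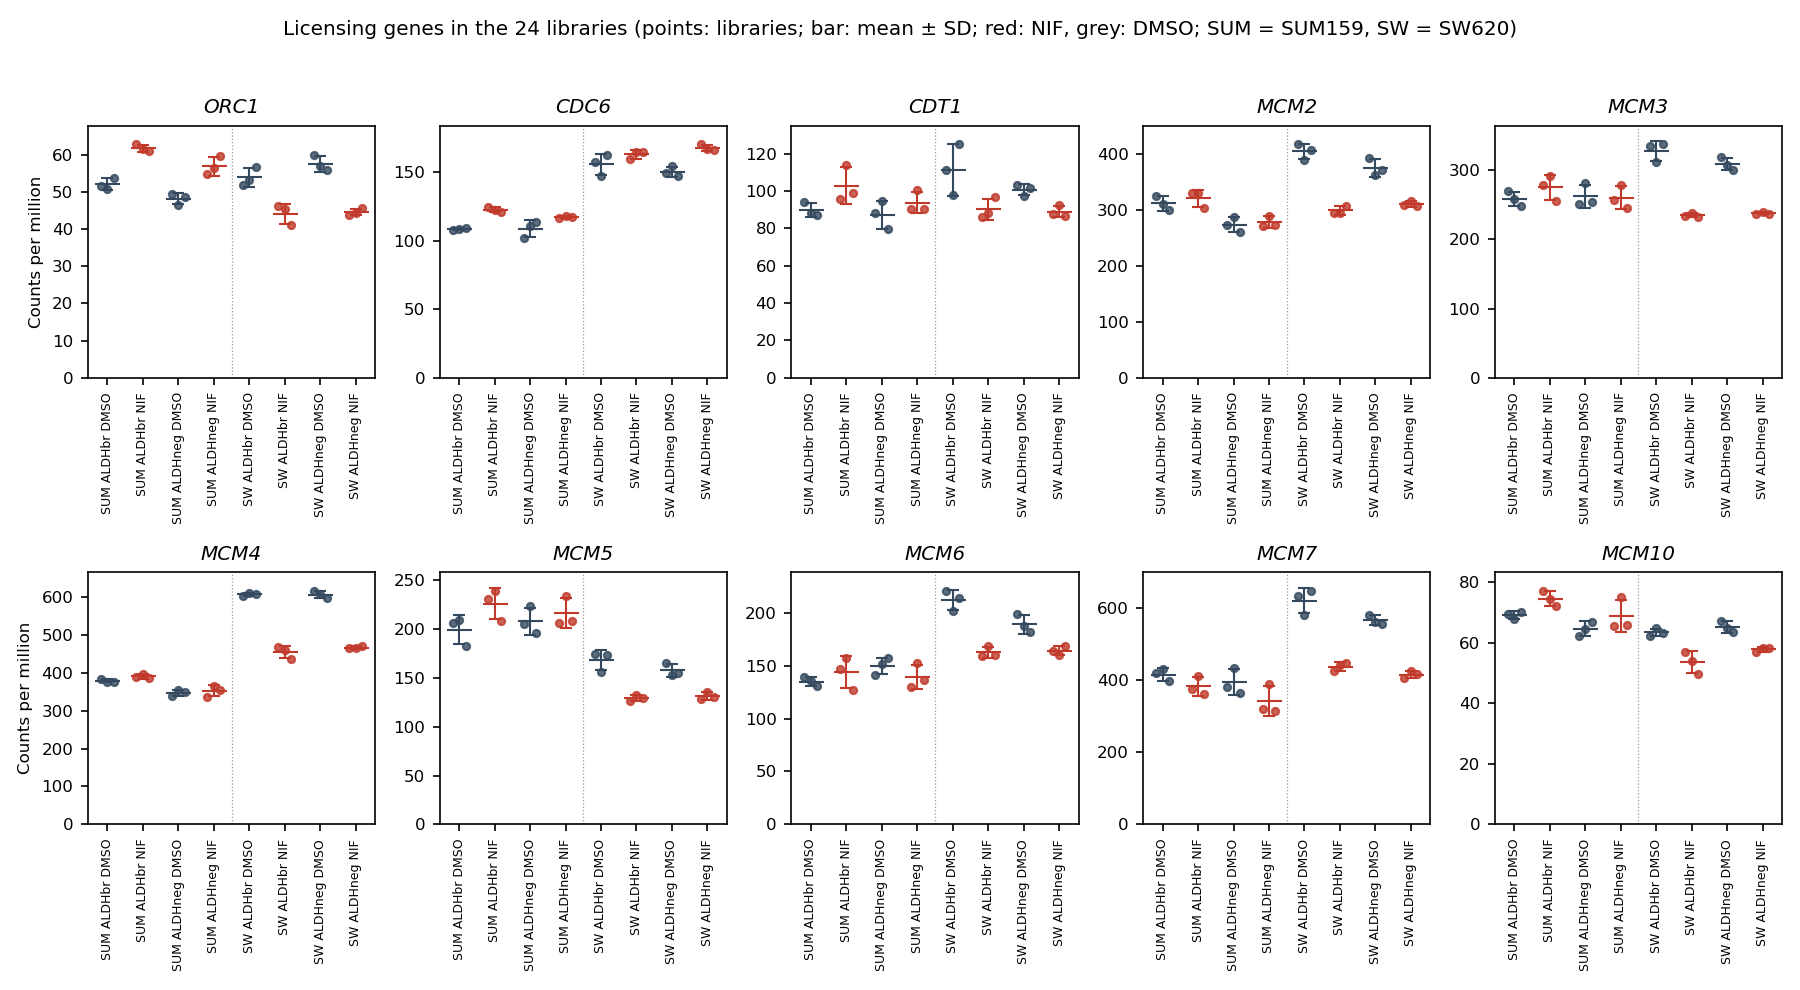
CPM of each licensing gene in each of the 24 libraries, scaled within each cell line, by group (horizontal bar, mean; vertical bar, SD; grey, DMSO; red, NIF; SUM, SUM159; SW, SW620). In SW620 the NIF points of ORC1, CDT1 and the 7 MCM genes lie below the DMSO points of the same population, and those of CDC6 do not.

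In SW620 ALDHbr cells all 6 subunits of the MCM ring, *MCM10*, *ORC1* and *CDT1* fell under NIF, and *CDC6* was not called. Of the 10 licensing genes 9 were called lower and 0 higher, against 21.9% of 13953 genes called lower. The median log2 fold change of the 10 was -0.38, beside -0.01 over all genes tested. In the same 9 genes the 3 NIF libraries lay below the 3 DMSO libraries without overlap, which held for 22.5% of all genes. In bulk RNA of a sorted population fewer cells that express a gene and less RNA per cell cannot be told apart.

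At the origin recognition step, *ORC1* was at 51.9, 53.2 and 56.9 CPM in the DMSO libraries and at 46.2, 45.4 and 41.2 CPM in the NIF libraries, a log2 fold change of -0.29 (SE 0.06, adjusted p = 0.00149). All NIF libraries were below all DMSO libraries, the highest of the former at 46.2 CPM and the lowest of the latter at 51.9 CPM. The loader *CDT1* was at 111, 97.8 and 125 CPM under DMSO, the widest spread of any member relative to its mean in these libraries, and at 85.9, 88.2 and 96.7 CPM under NIF. Its log2 fold change was -0.30 (SE 0.08, adjusted p = 0.00608), and its lowest DMSO library (97.8) lay just above its highest NIF library (96.7). *CDC6*, the other loader, was at 158, 147 and 163 CPM under DMSO and at 159.7, 165 and 165 CPM under NIF. These groups overlapped, and the log2 fold change of 0.07 (SE 0.05, adjusted p = 0.287) was not called, with a 95% interval of -0.04 to 0.17.

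Among the subunits of the ring, *MCM7* was at 634, 582 and 649 CPM under DMSO and at 426, 443 and 447 CPM under NIF. This is 70.6% of the DMSO level, or a log2 fold change of -0.50 (SE 0.05, adjusted p = 2.33e-06), the lowest of the 10. *MCM3* went from 336, 312 and 338 CPM to 234, 239 and 233 CPM, a log2 fold change of -0.48 (SE 0.05, adjusted p = 1.59e-06). The NIF libraries of *MCM3* were nearly equal. *MCM2*, the subunit that also binds histones, was at 417, 389 and 406 CPM under DMSO and at 295, 294 and 307 CPM under NIF, a log2 fold change of -0.44 (SE 0.05, adjusted p = 5.96e-06). *MCM4* was at 604, 612 and 608 CPM and 469, 461 and 438 CPM, a log2 fold change of -0.41 (SE 0.04, adjusted p = 3.13e-06). In both genes the gap between the groups was wider than the range within either.

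*MCM5* and *MCM6*, the remaining subunits, fell by similar amounts. *MCM5* was at 175, 157 and 174 CPM under DMSO and at 126, 132 and 129 CPM under NIF, a log2 fold change of -0.38 (SE 0.06, adjusted p = 7.68e-05). *MCM6* was at 221, 202 and 214 CPM and 159, 168 and 161 CPM, a log2 fold change of -0.39 (SE 0.05, adjusted p = 4.45e-05). DMSO replicate 2 was the lowest DMSO library of *MCM2*, *MCM3*, *MCM5*, *MCM6*, *MCM7*, *CDC6* and *CDT1*. *MCM10*, which acts after loading, was at 62.2, 64.7 and 63.3 CPM and 56.9, 53.9 and 49.8 CPM, a log2 fold change of -0.24 (SE 0.06, adjusted p = 0.00291), the smallest of the 9 falls. Leaving out any 1 of the 6 libraries kept 9 members called.

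In SW620 ALDHneg cells 8 licensing genes were called lower, against 22.7% of 13953 genes, and *CDC6* was called higher, against 22.3%. The 8 were *ORC1*, *MCM10* and the 6 ring subunits, all of which were also called lower in ALDHbr cells. The median of the 10 was -0.27, beside -0.01 over all genes. In these 8 and in *CDT1* the NIF libraries lay below the DMSO libraries without overlap, as did those of 32.0% of all genes. With library totals in place of scaling factors the split over all genes moved from 3114 higher and 3172 lower to 2578 and 3957, and the members to 0 higher and 9 lower, with *CDT1* called and *CDC6* not.

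*ORC1* was at 60.1, 57.1 and 56.0 CPM under DMSO and at 43.96, 44.3 and 45.6 CPM under NIF, a log2 fold change of -0.37 (SE 0.06, adjusted p = 1.65e-04). *CDC6* was at 149, 155 and 147 CPM under DMSO and at 171, 167 and 167 CPM under NIF, a log2 fold change of 0.16 (SE 0.05, adjusted p = 0.0152), so that every NIF library was above every DMSO library, as in 31.5% of all genes. This call was lost without NIF replicate 1 (the adjusted p over all alternatives ran from 1.71e-04 to 0.0648). *CDT1* was at 103, 97.5 and 101 CPM and 87.6, 92.6 and 86.9 CPM, and its log2 fold change of -0.18 (SE 0.08, adjusted p = 0.076) was not called. *MCM10* was at 67.3, 64.8 and 63.6 CPM and 56.9, 58.3 and 58.3 CPM, a log2 fold change of -0.17 (SE 0.06, adjusted p = 0.0201). Its call was lost with no filter on low counts and without NIF replicate 1, NIF replicate 3, DMSO replicate 1 or DMSO replicate 2. Over all alternatives its adjusted p reached 0.11.

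The ring again fell as a group. *MCM7* was at 583, 563 and 557 CPM under DMSO and at 406, 426 and 417 CPM under NIF, a log2 fold change of -0.45 (SE 0.05, adjusted p = 5.84e-06). *MCM3* went from 319, 308 and 301 CPM to 238, 239 and 237 CPM, a log2 fold change of -0.38 (SE 0.05, adjusted p = 1.33e-05). *MCM4* went from 617, 608 and 597 CPM to 465, 465 and 471 CPM, a log2 fold change of -0.38 (SE 0.04, adjusted p = 6.38e-06). No NIF library of these 3 subunits reached their lowest DMSO library, and they stood at 73.3%, 76.9% and 76.9% of their DMSO levels. *MCM2* was at 391, 361 and 370.1 CPM and 309, 316 and 306 CPM, a log2 fold change of -0.27 (SE 0.05, adjusted p = 3.84e-04). *MCM5* was at 166, 153 and 155 CPM and 128, 136 and 130.5 CPM, a log2 fold change of -0.27 (SE 0.06, adjusted p = 0.0013). *MCM6* was at 199, 187 and 182 CPM and 164, 160.1 and 169 CPM, a log2 fold change of -0.20 (SE 0.05, adjusted p = 0.00597). The groups of these last 3 did not overlap either, and they stood at 82.9%, 83.2% and 86.9% of DMSO.

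**Figure D2:**
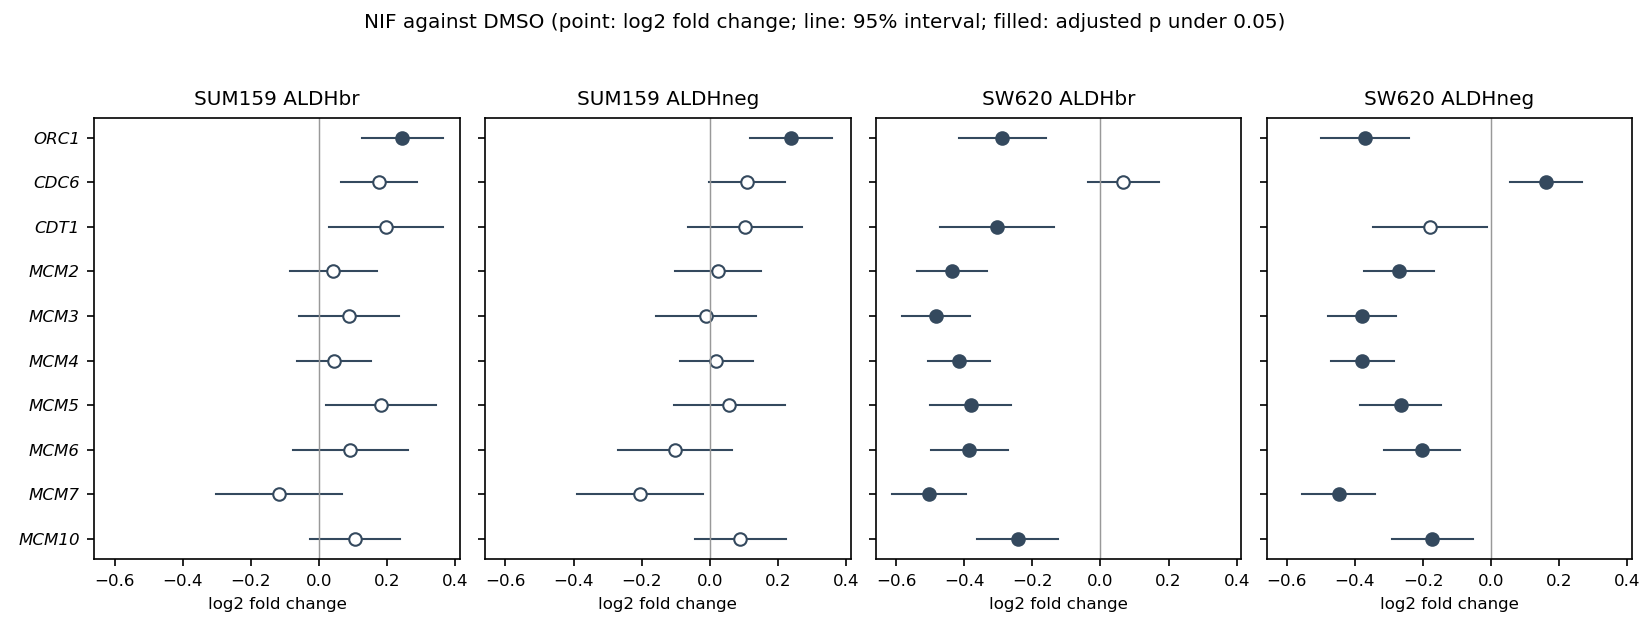
Log2 fold change of each licensing gene under NIF against DMSO (point) with its 95% interval (line) in the 4 sorted populations, filled where the adjusted p was under 0.05. The 6 ring subunits lie left of 0 in both SW620 panels, and ORC1 is the only filled point in either SUM159 panel.

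In SUM159 cells *ORC1* was the only licensing gene called under NIF in the edgeR fit of that line, and it was higher. In ALDHbr cells it was at 51.8, 51.0 and 53.9 CPM under DMSO and at 63.0, 61.6 and 61.1 CPM under NIF, a log2 fold change of 0.24 (SE 0.06, adjusted p = 0.0263). In ALDHneg cells it was at 49.5, 46.7 and 48.8 CPM and 54.8, 56.5 and 59.7 CPM, a log2 fold change of 0.24 (SE 0.06, adjusted p = 0.0306). The libraries did not overlap in either population. This 1 of 10 stood against 0.936% of 14953 genes called higher in ALDHbr cells and 1.10% in ALDHneg cells. The call was lost without any 1 of ALDHbr NIF replicates 1, 2 and 3 and DMSO replicates 1 and 2, and without any 1 of the 6 ALDHneg libraries. It was also lost with library totals in both populations, and in ALDHneg cells with no filter on low counts or only the 2 groups compared. Over all alternatives the adjusted p reached 0.116 in ALDHbr and 0.136 in ALDHneg cells.

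The SUM159 replicate numbers marked libraries that deviated together, and a fit with the replicate as a block called 4 members higher in ALDHbr cells, against 5.77% of all genes. These were *ORC1* at 0.24 (SE 0.05, adjusted p = 0.00254), *CDT1* at 0.19 (SE 0.06, adjusted p = 0.0244), *MCM5* at 0.18 (SE 0.04, adjusted p = 0.00888) and *CDC6* at 0.18 (SE 0.05, adjusted p = 0.0139). *CDC6* was at 108, 109 and 109.7 CPM under DMSO and at 125, 122 and 121 CPM under NIF, and *CDT1* at 93.9, 88.0 and 87.2 CPM and 95.6, 114 and 99.2 CPM. Neither overlapped. *MCM5* was at 206, 209.7 and 183 CPM and 231, 239 and 209 CPM, so that NIF replicate 3 lay within the DMSO range although each NIF library was above the DMSO library of its own number. In the edgeR fit of SUM159 without the block these 3 were not called, with adjusted p of 0.0873 for *CDC6*, 0.207 for *CDT1* and 0.236 for *MCM5*. *CDC6* was also called higher, without a block, by DESeq2 and in the fit of all 24 libraries.

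In SUM159 ALDHneg cells the blocked fit called *ORC1* higher, a log2 fold change of 0.24 (SE 0.05, adjusted p = 0.00326), against 6.10% of all genes, and *MCM7* lower, a log2 fold change of -0.21 (SE 0.05, adjusted p = 0.00389), against 7.08%. *MCM7* was at 382, 435 and 366 CPM under DMSO and at 321, 390.3 and 315 CPM under NIF. The groups overlapped through NIF replicate 2, and each NIF library was below the DMSO library of its own number. Without the block its adjusted p was 0.242. In ALDHbr cells *MCM7* was at 419.9, 431 and 397 CPM and 376, 412 and 362 CPM, with a log2 fold change of -0.12 (SE 0.09, adjusted p = 0.545).

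The other ring subunits moved little in SUM159. Mean CPM under DMSO and NIF in ALDHbr cells was 311 ± 13.4 and 320.3 ± 15.2 for *MCM2*, 259 ± 10.3 and 276 ± 17.9 for *MCM3*, 379 ± 4.08 and 391 ± 5.54 for *MCM4*, and 135 ± 4.29 and 144 ± 15.3 for *MCM6* (SD, n = 3). Their log2 fold changes were 0.04, 0.09, 0.04 and 0.09. The 95% intervals of these 4 in ALDHbr cells lay between -0.08 and 0.26. In ALDHneg cells *MCM2* was at 273 ± 13.3 and 278 ± 10.1 CPM, *MCM3* at 263 ± 17.0 and 261 ± 17.1, *MCM4* at 348 ± 8.20 and 353 ± 14.7, *MCM5* at 208 ± 13.9 and 217 ± 15.5, and *MCM6* at 149.9 ± 8.00 and 139.7 ± 11.5. None of these 5 was called, and their intervals lay between -0.27 and 0.22.

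*MCM10* was at 69.2 ± 1.30 and 74.5 ± 2.55 CPM in SUM159 ALDHbr cells, under DMSO and NIF, and at 64.6 ± 2.44 and 68.8 ± 5.34 CPM in ALDHneg cells, and was not called in either. In ALDHneg cells *CDC6* was at 102, 111 and 114 CPM and 117, 118 and 117 CPM, a log2 fold change of 0.11 (SE 0.05, adjusted p = 0.319), and *CDT1* at 88.4, 94.5 and 79.5 CPM and 90.6, 100.4 and 90.6 CPM, a log2 fold change of 0.10 (SE 0.08, adjusted p = 0.568). Without regard to any test, 5 members had NIF libraries above all DMSO libraries in ALDHbr cells (*ORC1*, *CDC6*, *CDT1*, *MCM4* and *MCM10*), against 11.0% of all genes, and 2 in ALDHneg cells (*ORC1* and *CDC6*), against 9.65%. The median log2 fold change of the 10 was 0.10 in ALDHbr cells and 0.04 in ALDHneg cells, beside 0.00 over all genes.

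The difference between the lines was tested directly, in a fit of all 24 libraries, as the NIF effect in SW620 minus that in SUM159. It uses the same libraries as the comparisons above. In ALDHbr cells 9 of the 10 members differed, all more negative in SW620, against 10.7% of 16271 genes. The difference on the log2 scale was -0.57 (SE 0.09, adjusted p = 2.44e-05) for *MCM3*, -0.57 (SE 0.10, adjusted p = 1.53e-04) for *MCM5* and -0.53 (SE 0.08, adjusted p = 2.34e-05) for *ORC1*. It was -0.50 for *CDT1*, -0.48 for *MCM2*, -0.48 for *MCM6*, -0.46 for *MCM4*, -0.39 for *MCM7* and -0.35 for *MCM10*. *CDC6* did not pass, at -0.11 (SE 0.07, adjusted p = 0.291), with a 95% interval of -0.25 to 0.03.

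In ALDHneg cells 6 of the 10 differed, against 10.5%. *ORC1*, which fell in SW620 and rose in SUM159, differed most, by -0.60 (SE 0.08, adjusted p = 3.99e-06). The others were *MCM4* at -0.39 (SE 0.06, adjusted p = 7.76e-05), *MCM3* at -0.36, *MCM5* at -0.32, *MCM2* at -0.29 and *MCM10* at -0.26. *CDT1*, *MCM7*, *MCM6* and *CDC6* were not called, with 95% intervals of -0.52 to -0.03, -0.46 to -0.01, -0.30 to 0.11 and -0.08 to 0.20. The blocked fit called 8, against 12.4%, adding *MCM7* at -0.23 (SE 0.07, adjusted p = 0.0213) and *CDT1* at -0.27 (SE 0.10, adjusted p = 0.0479). Library totals also gave 8, while the split over all genes moved from 1939 higher and 1702 lower to 1615 and 2335.

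Single libraries decided some of these ALDHneg calls. *MCM5* was not called without SUM159 NIF replicate 2, SW620 NIF replicate 1 or SW620 DMSO replicate 1 (adjusted p up to 0.0798). *MCM10* was not called without any 1 of those 3, SW620 NIF replicate 3 or SUM159 DMSO replicate 1, nor with no filter on low counts. Its adjusted p over all alternatives reached 0.116. *MCM7* was called without SUM159 NIF replicate 3 or SUM159 DMSO replicate 2, and *CDT1* without the latter (adjusted p over all alternatives down to 0.0107 and 0.015). In ALDHbr cells 9 members were called whichever library was left out.

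**Figure D3:**
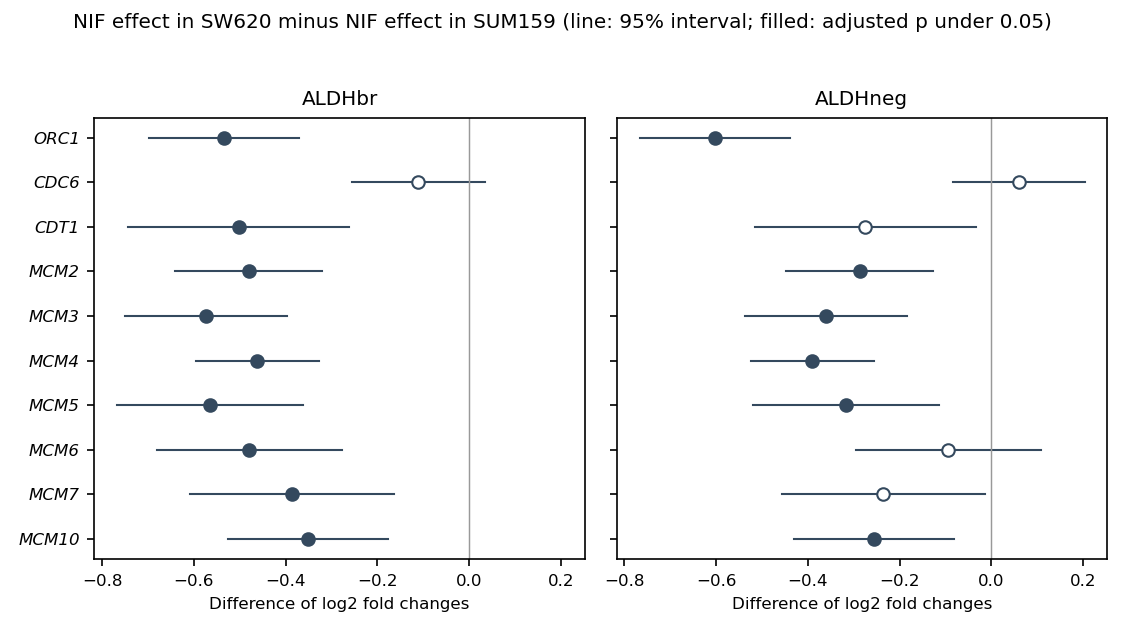
NIF effect in SW620 minus NIF effect in SUM159 for each licensing gene (point) with its 95% interval (line), filled where the adjusted p was under 0.05. In ALDHbr cells every gene but CDC6 is filled and below 0, and in ALDHneg cells 6 are.

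The NIF effect on licensing genes was also compared between ALDHbr and ALDHneg cells of the same line, from effects that share no library. edgeR called 0 members in SUM159, where 0% of genes were called, and 0 in SW620, where 0.00717% were, a single gene. DESeq2 called 0 members in both. At an unadjusted p under 0.05 there were 0 members in SUM159 and 2 in SW620, *MCM2* at -0.17 (95% interval -0.31 to -0.02) and *MCM6* at -0.18 (-0.34 to -0.02), both more negative in ALDHbr cells. The 10 intervals in SW620 reached from -0.36 to 0.26, and those in SUM159 from -0.18 to 0.43.

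Between the sorted populations of SUM159, 1 licensing gene was called under DMSO and 2 under NIF, near the share of all genes. Under DMSO *MCM2* was higher in ALDHbr cells, at 325, 309.7 and 298 CPM against 272, 287 and 260.4 CPM, a log2 fold change of 0.19 (SE 0.06, adjusted p = 0.0339), where 10.7% of genes were called higher. Under NIF *MCM2* was at 329, 329 and 303 CPM against 271, 289 and 273 CPM, a log2 fold change of 0.21 (SE 0.06, adjusted p = 0.0215), and *MCM4* at 390.4, 397 and 386 CPM against 337, 365 and 356 CPM, a log2 fold change of 0.15 (SE 0.05, adjusted p = 0.0494), where 9.95% of genes were called higher. Libraries of ALDHbr cells lay above those of ALDHneg cells without overlap for 4 members under DMSO (*MCM2*, *MCM4*, *ORC1* and *MCM10*), against 18.1% of all genes, and for 4 under NIF (*MCM2*, *MCM4*, *ORC1* and *CDC6*), against 18.4%. They lay below for *MCM6* under DMSO, against 18.6%. The blocked fit called 2 members higher under DMSO, against 17.9% of genes, adding *MCM4* at 0.12 (SE 0.04, adjusted p = 0.0249). Under NIF it called 3, against 16.9%, adding *MCM7* at 0.17 (SE 0.05, adjusted p = 0.00622).

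These SUM159 calls were lost when any 1 of several libraries was left out. Under DMSO *MCM2* was not called without ALDHbr replicate 1 or 2 or ALDHneg replicate 1 or 3, nor with only the 2 groups compared. Its adjusted p over all alternatives reached 0.137. Under NIF *MCM2* was not called without ALDHbr replicate 1 or 2 or ALDHneg replicate 1 or 3 (adjusted p up to 0.0845), and *MCM4* without any of these or ALDHbr replicate 3. The *MCM4* call was also lost with library totals, no filter on low counts or only the 2 groups compared, with an adjusted p over all alternatives of up to 0.197. Without ALDHneg NIF replicate 2, *MCM7* and *MCM10* were called as well, which made 4 members.

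In SW620 edgeR called 0 licensing genes between ALDHbr and ALDHneg cells under DMSO, where 11.3% of genes were called, and 0 under NIF, where 6.67% were. At an unadjusted p under 0.05 there were 3 members under DMSO, *MCM6* at 0.17 (SE 0.05, adjusted p = 0.0552), *MCM7* at 0.13 (SE 0.05, adjusted p = 0.099) and *MCM2* at 0.11 (SE 0.05, adjusted p = 0.136), and 0 under NIF. DESeq2 called 1 under DMSO, *MCM6*, and 0 under NIF. The DMSO result turned on 1 library: without ALDHbr DMSO replicate 2, 5487 genes rather than 1577 were called, and *MCM2*, *MCM6*, *MCM7* and *CDT1* were called higher in ALDHbr cells, against 18.6% of 14147 genes.

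Around the licensing genes, the rest of the replication machinery in SW620 was read from lists. Like the members, these were chosen with earlier results of these data known. Their counts stand beside 21.9% of all genes called lower in ALDHbr cells and 22.7% in ALDHneg cells, where 22.3% were called higher. The share called higher in ALDHbr cells is not given here. By the other measure, libraries without overlap, 22.5% of all genes were higher under NIF in ALDHbr cells. Of 16 helicase activation genes 13 were called lower in ALDHbr cells and 12 in ALDHneg cells, with list medians of -0.32 and -0.34. *GINS2*, a subunit of the GINS complex that joins the MCM ring, was lowest in ALDHbr cells at -0.72 (SE 0.09, adjusted p = 1.48e-05), and *TICRR*, which helps to recruit CDC45, was lowest in ALDHneg cells at -0.61 (SE 0.11, adjusted p = 2.90e-04). The only gene called higher in either was *CCNE1*, which encodes the G1/S cyclin E1, at 0.34 (SE 0.07, adjusted p = 8.56e-04) in ALDHbr and 0.62 (SE 0.07, adjusted p = 3.53e-06) in ALDHneg cells. Of 24 replication fork genes 20 and 18 were called lower and 0 higher, with medians of -0.33 and -0.25. *LIG1*, the ligase that joins Okazaki fragments, was lowest in both, at -0.63 and -0.61, and the fork genes called lower with the highest log2 fold changes were *TIMELESS* at -0.16 in ALDHbr and *WDHD1* at -0.19 in ALDHneg cells.

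The other origin recognition genes moved in both directions. Of 6 genes 2 were called lower and 1 higher in each SW620 population, with medians of -0.10 and -0.09. The 2 called lower are near the share of all genes called lower. *ORC2* was lowest in both, at -0.29 and -0.25, and *LRWD1*, an ORC-associated protein, was higher, at 0.31 and 0.40. Of 3 other MCM family and partner genes 2 were called lower in each, *MCMBP*, a binding partner of the MCM subunits, and *MCM8*, with *MCMBP* lowest in ALDHbr cells at -0.30 and *MCM8* lowest in ALDHneg cells at -0.32. The values of *MCM8* in ALDHbr and *MCMBP* in ALDHneg cells were -0.25 and -0.17. In SUM159 edgeR called 0 of these 9 genes, and 0 helicase activation and fork genes, in either population. Of the 16 helicase activation genes 6 in ALDHbr and 3 in ALDHneg cells had an unadjusted p under 0.05 there, and DESeq2 called 1 in each. Of the 24 fork genes 3 had such a p in each population, as did 1 of the 9 in ALDHbr and 0 in ALDHneg cells, and DESeq2 called 0 of either.

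Among genes that restrain licensing or remove its factors, more were called lower than higher. Of 8 such genes 4 were called lower and 1 higher in SW620 ALDHbr cells, and 5 lower and 0 higher in ALDHneg cells, with medians of -0.16 in both. *SKP2*, part of a ubiquitin ligase that targets CDT1 among others, was lowest in ALDHbr cells at -0.71 (SE 0.06, adjusted p = 5.36e-07) and stood at -0.71 in ALDHneg cells, where *CCNF* was at -0.71. *CUL4B*, a scaffold of the ligase that destroys CDT1 in S phase, was the 1 called higher in ALDHbr cells, at 0.16 (SE 0.06, adjusted p = 0.0374), and the highest of those called in ALDHneg cells was *FZR1* at -0.16. *GMNN*, which encodes the CDT1 inhibitor geminin, was named after its values were seen, at -0.40 and -0.27, called lower in both. In SUM159 *CUL4B* and *CCNF* were the 2 of 8 called, both lower, with *CUL4B* at -0.55 (SE 0.06, adjusted p = 5.59e-05) in ALDHbr and -0.59 (SE 0.06, adjusted p = 5.87e-05) in ALDHneg cells, and *CCNF* at -0.28 and -0.30. Of all genes 2.23% were called lower in SUM159 ALDHbr cells and 2.20% in ALDHneg cells. DESeq2 called 3 of the 8 in each population.

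Of 13 E2F and RB family genes 4 were called lower and 2 higher in SW620 ALDHbr cells, and 4 lower and 1 higher in ALDHneg cells. The medians were -0.08 and -0.11. The 4 called lower in each population are near the share of all genes called lower. *TFDP1*, the dimer partner of the E2F proteins, was lowest at -0.45 and -0.44, and *E2F6*, which represses E2F sites, was highest at 0.35 and 0.30. In SUM159 *E2F7* at -0.49 and *E2F5* at -0.38 were called lower in ALDHbr cells, against 2.23% of all genes called lower. In SUM159 ALDHneg cells 0 of the 13 were called, while 3 had an unadjusted p under 0.05 and DESeq2 called 1.

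Other cell cycle genes moved with the licensing genes in SW620. Of 14 mitotic genes 12 were called lower in ALDHbr cells and 14 in ALDHneg cells, with medians of -0.53 and -0.71, which are lower than those of the licensing genes. *AURKA*, a mitotic kinase, was lowest in ALDHbr cells at -0.73 (SE 0.06, adjusted p = 1.58e-07), and *CENPE*, a kinetochore motor, in ALDHneg cells at -0.94 (SE 0.12, adjusted p = 1.56e-05). The highest values among those called were *TOP2A* at -0.37 and *CDK1* at -0.15. Of 8 p53 targets and CDK inhibitors 3 were called higher and 3 lower in ALDHbr cells, and 3 and 4 in ALDHneg cells. In ALDHneg cells 22.3% of all genes were called higher and 22.7% lower, and in ALDHbr cells 21.9% were called lower. For the genes called higher in ALDHbr cells only the share without overlap, 22.5% of all genes, is at hand, which is another measure. *CDKN1A*, which encodes the CDK inhibitor p21, was highest at 1.91 and 2.15, from 23.9 to 28.6 CPM under DMSO to 96.2 to 104 CPM under NIF in ALDHbr cells, and *BTG2* was lowest at -0.97 and -0.82. In SUM159 2 mitotic genes were called lower in each population, with medians of -0.19 and -0.20, *MKI67* at -0.56 and -0.51, joined by *KIF11* at -0.27 in ALDHbr and *PLK1* at -0.28 in ALDHneg cells, against 2.23% and 2.20% of all genes called lower. DESeq2 called 6 and 3 of the 14, and 9 and 10 had an unadjusted p under 0.05. *CDKN1B* was called lower at -0.55 and -0.45, and *MDM2* at -0.33 in ALDHbr cells. The part of cell cycle distribution in the licensing values was not tested.

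Some lineage markers were called under NIF in SW620 as well. Their counts stand beside 21.9% of all genes called lower in ALDHbr cells, and 22.3% higher and 22.7% lower in ALDHneg cells. For those called higher in ALDHbr cells the only share at hand is that of libraries without overlap, 22.5% of all genes. In SW620 ALDHbr cells 2 of 10 colon epithelial markers were called higher and 4 lower, and their sum ran from 2199 to 2331 CPM under DMSO and from 2436 to 2525 CPM under NIF, while in ALDHneg cells 2 were higher and 3 lower. The highest and lowest called were *KRT20* at 0.69 and 0.55 and *GPA33* at -1.60 and -2.22. Of 10 mesenchymal markers 5 were expressed enough to test in SW620, and 2 were called higher and 1 lower in each population. *AXL* was highest in ALDHbr cells at 1.75, *ZEB1* in ALDHneg cells at 1.66, and *FN1* lowest at -1.76 and -0.99. The sum of the 10 ran from 14.8 to 17.6 CPM under DMSO and from 32.6 to 36.2 CPM under NIF in ALDHbr cells. The sort genes were lower under NIF in SW620, *ALDH1A1* at -0.46 and -0.71 and *ALDH1A3* at -1.47 and -1.89, all called. In SUM159 edgeR called 0 of the 10 mesenchymal markers in each population, where 2 had an unadjusted p under 0.05 and DESeq2 called 1, and 0 colon markers were expressed enough to test. The part of these genes in the licensing result was not tested.

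Across the 24 libraries, with log2 CPM centred within each line, the pattern of the MCM ring was described by the mean of its 6 subunits. Over 10152 genes with enough expression, the non-members most like this mean were *NUP93*, which encodes a nuclear pore protein, with a Pearson r of 0.973, *UNG*, which encodes uracil-DNA glycosylase, 0.963, *YWHAB* 0.959, *GNPAT* 0.958 and *RBM14* 0.957. Among members outside the ring r was 0.780 for *CDT1*, 0.748 for *MCM10* and 0.691 for *ORC1*, and -0.338 for *CDC6*. Within SUM159 alone r was 0.177 for *ORC1* and 0.277 for *CDC6*, and within SW620 alone 0.891 and -0.683. The 6 subunits, each a part of the mean, had r of 0.594 (*MCM6*) to 0.906 (*MCM3*) within SUM159 and 0.967 to 0.998 within SW620. The 5 non-members had 0.730 to 0.873 within SUM159 and 0.980 to 0.991 within SW620, so all of these values were lower in SUM159. The libraries of a group share their treatment and a line its scaling, so these values describe the libraries only.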

How the data were processed

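Total RNA from 24 samples of 3 independent biological replicates a group was extracted on a Maxwell RSC with its simplyRNA kit, and libraries were made with the Illumina Stranded Total RNA Prep. The values are raw counts per gene that the authors deposited for the whole series. The submitters' processing notes name FastQC, STAR and GRCh38, and the counting tool and annotation are not given in the sources used here. Of 28307 genes, 4579 had no count in any library, and 234 (0.827%) carried a symbol without an Entrez number and were kept. All 24 columns matched a sample by its title, and 0 were left unmapped.

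Each cell line was fitted on its own (4 groups, 12 libraries) with edgeR 4.0.16 in R 4.3.3, with low counts filtered by group, trimmed mean of M values scaling, the quasi-likelihood test and Benjamini-Hochberg adjustment over all genes tested at 0.05. Line differences came from 1 fit of all 24 libraries. The members and gene lists were chosen with earlier results of these data known. All members were named, as were the called genes with the highest and lowest log2 fold change of each list under NIF. Likeness was computed over genes whose log2 CPM averaged 1 or more in both lines. Alternatives were other scaling (library totals, relative log expression), other filters (none, at least 10 counts in every library), DESeq2 1.42.0, smaller or larger sets of groups, a replicate block and leaving out each library. Scripts were tested on simulated data.

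Same-numbered SUM159 libraries deviated together from their group means (r of 0.182 to 0.451 in 12 of 12 pairs of libraries, against -0.278 to 0.0706 for other numbers), so that blocked values are given where a call changed. Deviations within a group cancel out, so the range for other numbers is no independent reference, and the pairs reuse the same libraries. Replicates differed by more than counting noise (chi-square per gene of 1.97 to 46.1), and each was counted as 1 sample. The spread between replicates sets the error. The study describes the replicates as independent sorting experiments.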

Additional observations from a re-analysis of the deposited data

Results flagged for a closer look

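The NIF effect on licensing genes differed between the cell lines by a test of the difference itself (SW620 minus SUM159, log2 scale, edgeR fit of 24 libraries, adjusted over 16271 genes). In ALDHbr cells the difference was -0.48 (SE 0.08, adjusted p = 6.61e-05) for *MCM2*, -0.57 (SE 0.09, adjusted p = 2.44e-05) for *MCM3*, -0.46 (SE 0.06, adjusted p = 1.12e-05) for *MCM4*, -0.57 (SE 0.10, adjusted p = 1.53e-04) for *MCM5* and -0.48 (SE 0.10, adjusted p = 8.39e-04) for *MCM6*. It was -0.39 (SE 0.11, adjusted p = 0.0106) for *MCM7*, -0.35 (SE 0.08, adjusted p = 0.00359) for *MCM10*, -0.50 (SE 0.12, adjusted p = 0.00273) for *CDT1* and -0.53 (SE 0.08, adjusted p = 2.34e-05) for *ORC1*. In ALDHneg cells it was -0.29 (SE 0.08, adjusted p = 0.00849) for *MCM2*, -0.36 (SE 0.09, adjusted p = 0.0029) for *MCM3*, -0.39 (SE 0.06, adjusted p = 7.76e-05) for *MCM4*, -0.32 (SE 0.10, adjusted p = 0.0212) for *MCM5*, -0.26 (SE 0.08, adjusted p = 0.0294) for *MCM10* and -0.60 (SE 0.08, adjusted p = 3.99e-06) for *ORC1*. Both contrasts share the libraries of the separate comparisons. Each line stands for 1 tissue, so that line and tissue cannot be told apart.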

How the results depend on the processing

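Among 1990 alternative values of single members, 1866 kept their direction and their side of the threshold, 49 lost a call, 27 gained one and 48 changed sign. In SW620 ALDHbr cells all 140 NIF values and in ALDHbr cells all 180 line differences were among the first. Counts of calls moved over 1.5 times in these cases. Of members, for NIF in SUM159 ALDHbr cells, where 1 was called, it was 0 with library totals, 2 with DESeq2, 4 with the replicate block and 2 with the fit of all 24 libraries. For NIF in SUM159 ALDHneg cells, where 1 was called, it was 0 with library totals, 0 with no filter on low counts, 2 with the replicate block and 0 with only the 2 groups compared. For SUM159 ALDHbr against ALDHneg cells under DMSO, where 1 was called, it was 2 with DESeq2, 2 with the replicate block and 0 with only the 2 groups compared. For SW620 ALDHbr against ALDHneg cells under DMSO, where 0 were called, it was 1 with at least 10 counts in every library and 1 with DESeq2. For SUM159 ALDHbr against ALDHneg cells under NIF, where 2 were called, it was 1 with library totals, 1 with no filter on low counts and 1 with only the 2 groups compared. Of all genes, for NIF in SUM159 ALDHbr cells, where 473 were called, it was 875 with DESeq2, 1994 with the replicate block and 725 with the fit of all 24 libraries. For NIF in SUM159 ALDHneg cells, where 493 were called, it was 884 with DESeq2, 1970 with the replicate block, 292 with only the 2 groups compared and 743 with the fit of all 24 libraries. For SUM159 ALDHbr against ALDHneg cells under DMSO, where 3432 were called, it was 5388 with the replicate block. For SW620 ALDHbr against ALDHneg cells under DMSO, where 1577 were called, it was 729 with only the 2 groups compared. For SUM159 ALDHbr against ALDHneg cells under NIF, where 3281 were called, it was 5270 with the replicate block. For the population difference in SUM159, where 0 were called, it was 3 with no filter on low counts, 2 with DESeq2, 6 with the replicate block and 1 with the fit of all 24 libraries. For the population difference in SW620, where 1 was called, it was 4 with library totals, 4 with no filter on low counts, 29 with DESeq2, 2 with the replicate block and 4 with the fit of all 24 libraries. With 1 library left out, counts of members called ran as 0 to 1 for NIF in SUM159 ALDHbr cells, 0 in every case for NIF in SUM159 ALDHneg cells, 0 to 1 for SUM159 ALDHbr against ALDHneg cells under DMSO, 0 to 4 for SW620 ALDHbr against ALDHneg cells under DMSO and 0 to 4 for SUM159 ALDHbr against ALDHneg cells under NIF. With 1 library left out, counts of genes called ran as 222 to 322 for NIF in SUM159 ALDHbr cells, 192 to 584 for NIF in SUM159 ALDHneg cells, 712 to 5487 for SW620 ALDHbr against ALDHneg cells under DMSO, 494 to 996 for SW620 ALDHbr against ALDHneg cells under NIF, 0 to 2 for the population difference in SUM159 and 1 to 27 for the population difference in SW620. Sign changes were all in members that were not called. They were *CDC6* for SUM159 ALDHbr against ALDHneg cells under DMSO (0.0032 with RLE size factors, 0.0088 with no filter on low counts, 0.0032 with DESeq2 and 0.00057 with the fit of all 24 libraries), *MCM4* for SW620 ALDHbr against ALDHneg cells under DMSO (-0.0020 with RLE size factors, -0.011 with library totals, -0.0098 with no filter on low counts, -0.0021 with DESeq2 and -0.0037 with only the 2 groups compared), *ORC1* for SW620 ALDHbr against ALDHneg cells under NIF (0.0032 with library totals), *CDC6* for the line difference in ALDHneg cells (-0.0046 with library totals) and *MCM10* for SW620 against SUM159 (-0.10 with library totals). Leaving out 1 library also changed signs of log2 fold changes. For NIF in SUM159 ALDHneg cells, *MCM2* ran from -0.0092 to 0.059, *MCM3* ran from -0.059 to 0.041 and *MCM4* ran from -0.0034 to 0.052. For SUM159 ALDHbr against ALDHneg cells under DMSO, *MCM3* ran from -0.051 to 0.036, *CDC6* ran from -0.048 to 0.033 and *CDT1* ran from -0.026 to 0.097. For SW620 ALDHbr against ALDHneg cells under DMSO, *MCM4* ran from -0.017 to 0.0070. For SUM159 ALDHbr against ALDHneg cells under NIF, *MCM6* ran from -0.019 to 0.12. For SW620 ALDHbr against ALDHneg cells under NIF, *MCM6* ran from -0.041 to 0.0053, *CDT1* ran from -0.033 to 0.048 and *ORC1* ran from -0.057 to 0.037. For the population difference in SUM159, *MCM2* ran from -0.014 to 0.057, *MCM4* ran from -0.0072 to 0.050, *MCM10* ran from -0.016 to 0.081 and *ORC1* ran from -0.022 to 0.041. In SUM159 same-numbered libraries correlated in their deviations from the group means in 12 of 12 pairs of libraries, and the replicate block changed no member's call other than those given. In SW620 1 of 12 such correlations was over 0.1 (-0.28 to 0.21, against -0.41 to 0.39 for other numbers), so the replicate numbers there do not mark pairs. Libraries of different numbers did vary together in SW620 ALDHbr cells, as NIF replicate 1 with DMSO replicate 2 (r of 0.39), which a block by number does not take up. The block kept the counts of members at 9, 9, 0 and 0. The causes of these changes were not tested. With 3 libraries a group, 95% intervals of the NIF effect were 0.18 to 0.37 wide on the log2 scale.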

Other observations

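Of the 6 licensing genes with an E2F octamer near the start, 5 were called lower under NIF in SW620 ALDHbr cells, with log2 fold changes of -0.50 for *MCM7*, -0.48 for *MCM3*, -0.44 for *MCM2*, -0.39 for *MCM6* and -0.30 for *CDT1*, and *CDC6* was not called, at 0.07. Both genes whose windows held none, *ORC1* at -0.29 and *MCM10* at -0.24, were called lower too. The *ORC1* window did not cover the outermost start of that gene. In SW620 ALDHneg cells 4 of the 6 were called lower, *CDT1* was not called and *CDC6* was called higher, and *ORC1* and *MCM10* were again called lower. No test was run on this grouping. *CDC6* and *CCNE1* were the members of the licensing and helicase activation lists with the highest values in SW620 ALDHneg cells, at 0.16 and 0.62.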
